A study of Mus musculus with 20 samples.

Results

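Slc4a1 encodes band 3, the chloride and bicarbonate exchanger of the red cell membrane. Its 19 introns were followed here in nascent RNA of murine erythroleukemia (MEL) cells, out of 68794 introns in the table of spliced and unspliced reads and 6537 in the table of splicing intermediates. They were chosen by gene: every intron of the tabulated transcript ENSMUST00000006749.9, which GENCODE mouse release 21 assigns to Slc4a1, in both tables. MEL cells are virus-transformed mouse red cell precursors, a tumour line that matures in part when treated with dimethyl sulfoxide (DMSO). The uninduced group received no DMSO and the induced group 2% DMSO for 5 days; both were wild type, and both were made from chromatin-bound RNA depleted of polyadenylated and of ribosomal RNA. Each group had 2 biological replicates sequenced on 2 PacBio instruments, which the tables merge into a single pool per condition. No spread between replicates can therefore be given, and every test below compares introns or pools on counting error alone.

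Band 3 has a membrane domain that exchanges anions and a cytoplasmic domain at the N terminus that ties the membrane to the spectrin skeleton through ankyrin. It is made in quantity late in red cell maturation, and the gene is therefore a marker of terminal erythroid differentiation. A shorter form, made from a promoter inside the gene, serves acid secretion in the kidney. Introns are removed in 2 steps: the RNA is first cut at the 5' splice site, leaving a free upstream exon as an intermediate, and the exons are then joined. A long read of nascent RNA shows at each intron it covers whether that intron was still present, already removed, or caught between the steps.

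The gene lies on the minus strand of GRCm38 chromosome 11 (102348824 to 102366203), and the tabulated transcript has 20 exons and 929 codons. All 19 introns of the table fell on annotated introns. Intron 1 (102361464 to 102365056), of 3593 nt, lies in the 5' UTR, and introns 2 to 19 lie between coding exons. The shortest was intron 5 (102359146 to 102359224), of 79 nt, and the median length was 466 nt, against 951 nt over all introns of the second table. The GC content of the 19 introns, as deposited, ran from 46.8% to 61.3%, and each was above the 43.9% median of all introns. Intron 1 is present in 1 of the 3 annotated transcripts that span it, introns 2 and 3 in 3 of 3, introns 4 and 5 in 2 of 2, and the rest in the only transcript that spans them. Of the 5 annotated transcripts, 1 begins inside intron 3, at position 102360568.

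The splice sites of 6 introns are printed because the results turn on them: the highest coSE (intron 10), the lowest coSE (intron 17), the largest share of intermediates (intron 6) and the introns that differed from the rest of the gene (introns 1, 5, 9 and 10). For 5' sites, the lower-case letters are the last 3 exon bases and the capitals the first 6 intron bases. For 3' sites, the capitals are the AG that closes the intron, before 3 exon bases.
Intron 1, 5' site: cagGTGGGC
Intron 5, 5' site: aagGTGAGT
Intron 6, 5' site: cagGTGCTT
Intron 9, 5' site: agaGTGAGT
Intron 10, 5' site: tagGTACAC
Intron 17, 5' site: tggGTAAGT
Intron 1, 3' site: agactgcacctttcttccAGgga
Intron 5, 3' site: caccacttggctgtccctAGgca
Intron 6, 3' site: gtcacctgtgtgtcccacAGcca
Intron 9, 3' site: tgacctttctccttctgtAGgtg
Intron 10, 3' site: tttcctttcctctacaacAGact
Intron 17, 3' site: gagtgtgtccgtcctcacAGgac

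Slc4a1 had no line for any intron in the uninduced pool. In the induced pool all 19 introns were listed, with 622 observations of a spliced and 195 of an unspliced intron. A read adds 1 observation at each intron it covers. These 817 observations placed the gene at rank 16 of the 7127 transcripts of the induced pool, although the induced pool was the shallower, with 279371 observations against 416379. Of the 654 transcripts listed in the induced pool alone, Slc4a1 had the most observations. The next were Epb42, Apol11b and Lypla2, with 228, 109 and 74, named after their values were seen. The product of Epb42 binds band 3 at the inner face of the membrane. Among the 6333 introns with at least 10 induced reads, 96 (1.52%) had no uninduced line, and 19 of these were of Slc4a1 and 9 of Epb42. How lines were chosen for the table is not stated. The uninduced pool lists 13504 introns with a single read and 1417 with none, so introns with few or no reads can be listed. Whether an unlisted intron held no read is therefore not known. If an unlisted intron held no read, a floor of 3 reads at each of the 19 introns gives a share of observations at least 21.4-fold higher in the induced pool. Fewer maturing cells and less nascent RNA per cell cannot be told apart in these pools.

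The labelled cell type was checked on 14 erythroid marker genes. All 14, Slc4a1 itself among them, had observations in the induced pool, and 12 in the uninduced pool, where Tal1 and Slc4a1 had none. Some had few: Tal1 had 0 uninduced and 2 induced observations, Nfe2 1 and 5, and Klf1 9 and 11. Of 21 markers of myeloid, lymphoid, megakaryocytic, fibroblast and kidney intercalated cells, 18 were not listed in either pool. The exceptions were megakaryocyte genes, with 106 uninduced and 220 induced observations in all. Of these, Itga2b had 26 and 202, Pf4 80 and 10, and Gp1ba 0 and 8; their part in the results was not tested.

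Reads became fewer along the gene. Intron 1 was covered by 76 reads and intron 2 by 85, the most of any. Introns 3, 4 and 5 had 71, 75 and 58 reads. An annotated transcript begins inside intron 3; whether reads began there was not tested. Introns 6 to 13 had between 31 and 56 reads. Introns 14 to 19 had 21, 21, 17, 19, 16 and 17. The rank correlation of reads with intron number was -0.92 over the 19 introns, given as a description because the same reads cover neighbouring introns. The ratio of reads at the last to the first intron was 0.224, against a median of 0.105 over 98 genes with at least 10 well-covered introns whose first intron also had at least 10 reads. Slc4a1 was at rank 72 from the lowest of these. Unspliced reads had a rank correlation of -0.44 with intron number. Introns 4, 5, 8, 9, 11 and 12, grouped after their values were seen, held 124 of the 195 unspliced reads and 325 of the 817 observations.

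**Figure D1:**
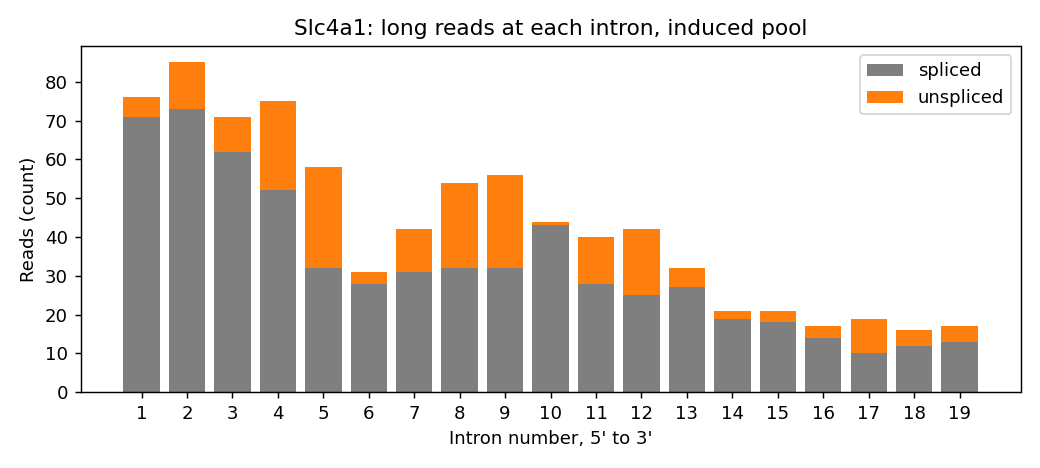
Number of spliced (grey) and unspliced (orange) long reads at each of the 19 introns of Slc4a1 in the induced pool, in the order of transcription. Reads fall from 85 at intron 2 to 16 at intron 18, and unspliced reads are most frequent at introns 4, 5, 8 and 9.

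Splicing at the gene was incomplete and uneven. Over all reads, the co-transcriptional splicing efficiency (coSE, spliced reads divided by spliced plus unspliced reads) was 0.761 (Wilson 95% interval 0.731 to 0.789). The interval treats observations as independent, which those of the same read are not. The median over the 19 introns was 0.765, against 0.947 over the 6314 introns of other genes with at least 10 reads. The SD over the 19 introns was 0.141. A coSE above 0.8 was found at 9 introns and a coSE below 0.6 at 5, while 9.66% of the other genes' introns were below 0.6. Among 149 genes with at least 10 introns of at least 10 induced reads, Slc4a1 had the 16th lowest coSE (median of the genes 0.911) and the 48th highest SD over introns (median 0.116).

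The introns at the start of the gene were mostly removed. Intron 1, the 5' UTR intron, was spliced in 71 of 76 reads, a coSE of 0.934 (Wilson 95% interval 0.855 to 0.972). Intron 2 was spliced in 73 of 85 reads (0.859) and intron 3 in 62 of 71 (0.873). Intron 2 follows codon 5 and intron 3 interrupts codon 46, in the part that encodes the cytoplasmic domain. Intron 4 was spliced in 52 of 75 reads (0.693, interval 0.582 to 0.786). Its 3' site, with a deposited score of 0.59, was the lowest-scoring of the gene, and 0.765% of all introns scored lower.

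In the middle of the gene levels differed widely from intron to intron. Intron 5, the shortest, was spliced in 32 of 58 reads (0.552, interval 0.425 to 0.673). Intron 6 was spliced in 28 of 31 reads (0.903, interval 0.751 to 0.967), so its interval lies above that of intron 5. Intron 7 was spliced in 31 of 42 reads (0.738) and intron 8 in 32 of 54 (0.593). Intron 9, of 671 nt (102357252 to 102357922), was spliced in 32 of 56 reads (0.571, interval 0.441 to 0.692). Intron 10, of 111 nt (102356930 to 102357040), is separated from it by an exon of 211 nt and was spliced in 43 of 44 reads (0.977, interval 0.882 to 0.996). It was the most completely removed intron of the gene, although the 1 unspliced read leaves its true level uncertain within that interval. Intron 11 was spliced in 28 of 40 reads and intron 12 in 25 of 42 (0.595). Their surrounding exons carry codons 376 to 561.

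Towards the 3' end fewer reads gave wider intervals. Introns 13 to 16 were spliced in 27 of 32, 19 of 21, 18 of 21 and 14 of 17 reads, with coSE between 0.824 and 0.905. Intron 17 (102351527 to 102352438) was spliced in 10 of 19 reads (0.526), the lowest level of the gene, with an interval from 0.317 to 0.727. Introns 18 and 19 were spliced in 12 of 16 and 13 of 17 reads (0.765). Added together, introns 11 to 19 had a coSE of 0.738 and introns 1 to 10 of 0.770. The rank correlation of coSE with intron number was -0.18, a description with no test. Ranked from intron 10 at the top through introns 1, 14, 6 and 3 down to introns 8, 9, 5 and 17, each of the 18 neighbouring steps in the order had overlapping Wilson intervals.

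Each intron was then tested against the summed reads of the other introns of its gene, by a two-sided Fisher's exact test. The induced pool gave 4382 such tests in 500 genes, and p-values were adjusted over all of them (Benjamini-Hochberg, threshold 0.05). Each intron is also part of the rest against which the others were set, so calls within the gene are not independent. Of the 19 Slc4a1 introns, 2 were lower and 2 were higher than the rest of the gene. Of all introns tested, 5.39% were lower and 2.19% higher. At an unadjusted p under 0.05, 5 Slc4a1 introns were lower and 4 higher. Some genes had as many calls: 20 of the 500 had at least 4 called introns.

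The introns below the rest were 5 and 9. The coSE of intron 5 was 0.552 against 0.777 for the other introns, a difference of -0.23 (adjusted p 0.00709, Fisher's exact test). Intron 9 had 0.571 against 0.775, a difference of -0.20 (adjusted p 0.0184, Fisher's exact test). The introns above the rest were 1 and 10. Intron 1 had 0.934 against 0.744 (difference 0.19, adjusted p 0.00171, Fisher's exact test). Intron 10 had 0.977 against 0.749 (difference 0.23, adjusted p 0.00252, Fisher's exact test). Set against introns 9 and 11 alone, where 60 of 96 reads were spliced, intron 10 was still higher, by 0.35 (adjusted p 0.000162, Fisher's exact test), while introns 1, 5 and 9 did not pass against their neighbours. The differences of introns 5 and 9 there were -0.20 and -0.19, near those against the whole gene, with fewer reads in the comparison (adjusted p 0.163 and 0.263, Fisher's exact test). That of intron 1 was 0.08, against 0.19 for the whole gene (adjusted p 0.865, Fisher's exact test). Why these calls were lost was not tested. With the first and last introns of every transcript left out, intron 9 had a difference of -0.19 and an adjusted p of 0.0512 (Fisher's exact test). Introns 8, 12 and 17 had coSE values of 0.593, 0.595 and 0.526 and did not pass, with adjusted p-values of 0.0582, 0.132 and 0.190 by the same Fisher's exact test.

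**Figure D2:**
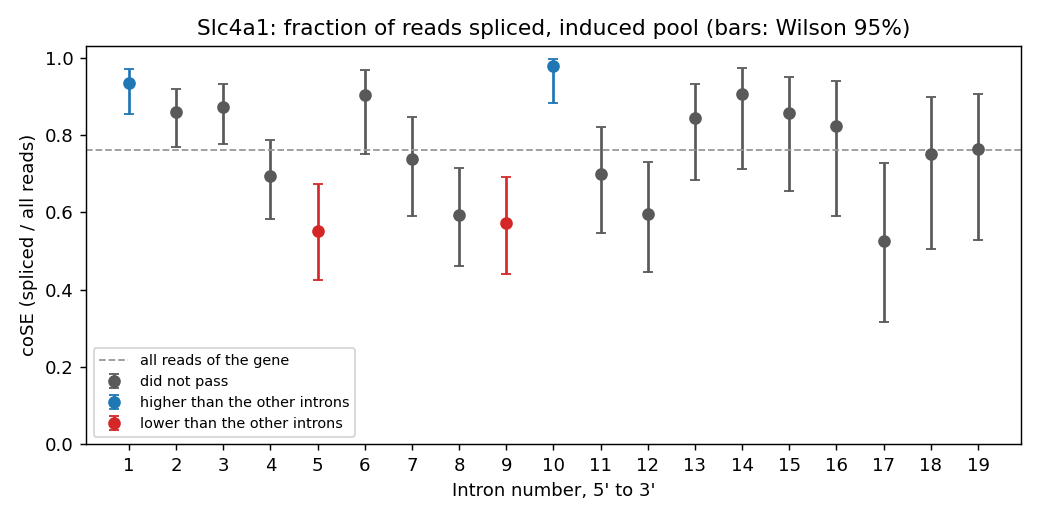
Fraction of reads spliced (coSE) at each Slc4a1 intron in the induced pool, with Wilson 95% intervals; the dashed line is the coSE of 0.761 over all reads of the gene. Blue points (introns 1 and 10) were higher and red points (introns 5 and 9) lower than the other introns of the gene by Fisher's exact test after adjustment over all introns tested, and intervals widen towards the 3' end as reads become fewer.

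The splice site sequences and their scores were set beside coSE. Intron 10, with the highest coSE, had the lowest deposited 5' score of the gene, 4.06, and 4.27% of all introns scored lower. Intron 17, with the lowest coSE, had a 5' score of 10.2, and intron 5 of 10.5, above 82.5% and 85.9% of all introns. The other called introns differed: intron 9, lower than the rest in coSE, scored 7.36, above 23.8% of all introns. Intron 1, higher than the rest, scored 8.07, above 35.0%. CAGGTAAGT is the 9-base sequence that pairs fully with U1 small nuclear RNA. Compared with it, the sites of introns 9 and 10 matched at 5 positions. Those of introns 1 and 6 matched at 6, and those of introns 5 and 17 at 7. No Slc4a1 site matched at all 9 positions, and 0.811% of all introns did. Over the 19 introns, Spearman's rank correlation of coSE was -0.13 with the 5' score, -0.17 with the 3' score, 0.22 with length and -0.39 with GC content. These are descriptions over introns that share reads, with no test.

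The Slc4a1 introns were compared with introns of other genes in 2 length classes. The 8 introns of up to 200 nt had a median coSE of 0.719 (0.552 to 0.977), against 0.833 for the 1140 such introns of other genes, with quartiles of 0.636 and 1. The 11 longer introns had a median of 0.844 (0.526 to 0.934), against 0.968 for 5174 introns of other genes, with quartiles of 0.846 and 1. In both classes the Slc4a1 median was the lower, and no test was made of this.

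Splicing intermediates were seen at most introns of Slc4a1. Over its 19 introns the second table held 56 intermediates and 530 spliced reads, where the first table had 622 spliced reads. The fraction of intermediates among intermediates plus spliced reads (NIC) was 0.0956 (0.0743 to 0.122, Wilson 95%). Over all 3008 induced introns of that table the share was 0.0435. Among 63 genes with at least 10 introns in it, Slc4a1 ranked 7th, with a median of 0.0397 over those genes. At least 1 intermediate was present at 17 of the 19 introns, and a NIC of 0.1 or more at 11. Of 2389 introns of other genes within the same range of 9 to 65 reads, 35.8% had an intermediate and 11.5% a NIC of 0.1 or more. The median depth was 29 reads for Slc4a1 and 15 for those introns, and the part of depth in the first of these shares was not tested.

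The highest NIC values lay in the middle and towards the end of the gene. Intron 6 had the highest NIC, 0.280, from 7 intermediates in 25 reads (0.143 to 0.476, Wilson 95%). The spliced reads behind this NIC numbered 18, and those behind its coSE 28. At intron 10 these counts were 41 and 43, and at intron 13 they were 16 and 27. The part of this uneven gap in the order of NIC was not tested. The coSE of intron 6, 0.903, was the fourth highest of the gene, and its 5' score was 4.83. Intron 18 had 3 intermediates among 11 reads (0.273), intron 12 had 6 among 29 (0.207) and intron 11 had 5 among 29 (0.172). Introns 5 and 9, which were lower than the rest in coSE, had 5 among 35 reads each (0.143). Intron 10 had 4 among 45 (0.0889) and intron 4 had 3 among 48 (0.0625).

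The first introns were at the other end. Intron 1 had no intermediate among 62 reads, which allows a share of up to 4.84% at a floor of 3 counts, and intron 2 had 1 among 65 (0.0154). Intron 3 had 7 among 63 (0.111). Intron 15 also had no intermediate, but among 14 reads this allows a share of up to 21.4%. The other introns, 7, 8, 13, 14, 16, 17 and 19, had 1 or 2 intermediates each and NIC values between 0.0333 and 0.125. Introns 1 to 10 together had 35 intermediates among 440 reads (0.0795) and introns 11 to 19 had 21 among 146 (0.144). Introns 1 and 2 supplied 62 and 65 of the 440 reads, and each of introns 11 to 19 had between 9 and 29. The difference was not tested.

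By Fisher's exact test of each intron against the rest of its gene, over 2082 introns of 254 genes, 0 of the 19 Slc4a1 introns passed for NIC, while 3.17% of all introns tested did. An unadjusted p under 0.05 was found for 4 of them, introns 1 and 2 below and introns 6 and 12 above the rest, and the chi-square test called 0. The smallest adjusted p was 0.0624 at intron 1 (0 against 0.107 for the rest), followed by 0.140 at intron 6 (0.280 against 0.0873; both Fisher's exact test).

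**Figure D3:**
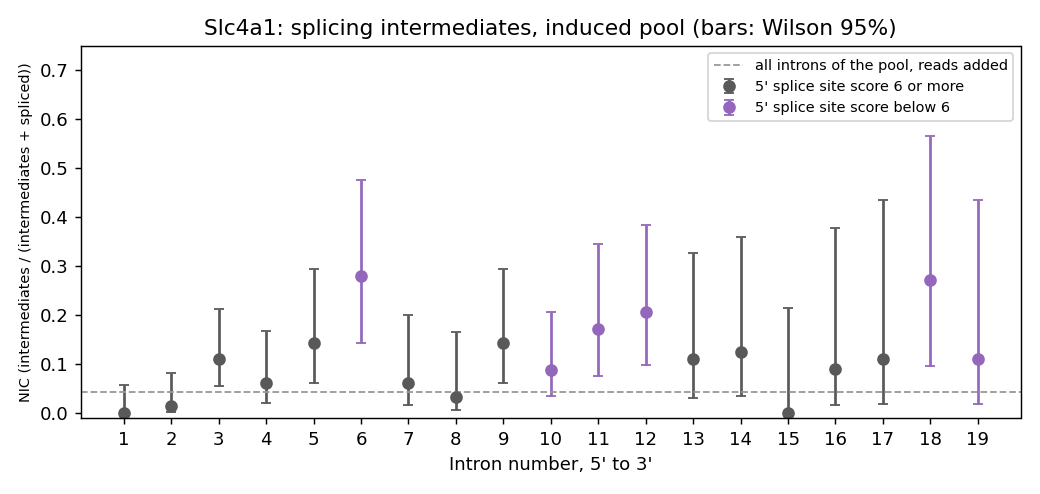
Fraction of splicing intermediates (NIC) at each Slc4a1 intron in the induced pool with Wilson 95% intervals; the dashed line is the 0.0435 of all introns with reads added together. Introns with a 5' splice site score below 6 are purple, and their NIC lies between 0.0889 and 0.280.

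NIC was set beside the 5' splice site score in the same way. Over the 19 introns, NIC and the 5' score had a Spearman coefficient of -0.54, a description with no test. With the reads at each intron in the first table the coefficient of NIC was -0.38. A 5' score below 6 was found at 6 of the 19 introns (6, 10, 11, 12, 18 and 19), against 12.01% of the 6537 introns of the table. The value of 6 was chosen after the scores were seen; intron 19 scored 5.84 and the next, intron 9, 7.36. These 6 introns had 26 intermediates among 148 reads (0.176) and the other 13 had 30 among 438 (0.0685). Within the induced pool as a whole the same split gave 0.0559 for 347 and 0.0422 for 2661 introns. At Slc4a1 the medians over introns were 0.190 and 0.0909. Intron 6 alone held 7 of the 26 intermediates, and the 13 include introns 1 and 2, with 0 in 62 reads and 1 in 65. Of the 6, introns 11, 12, 18 and 19 lie in the later part of the gene, and the part of position was not tested. The coSE of the 6 introns added together was 0.784 and that of the 13 was 0.754. The medians over introns ran the other way, at 0.757 and 0.824. Neither the NIC nor the coSE difference was tested.

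**Figure D4:**
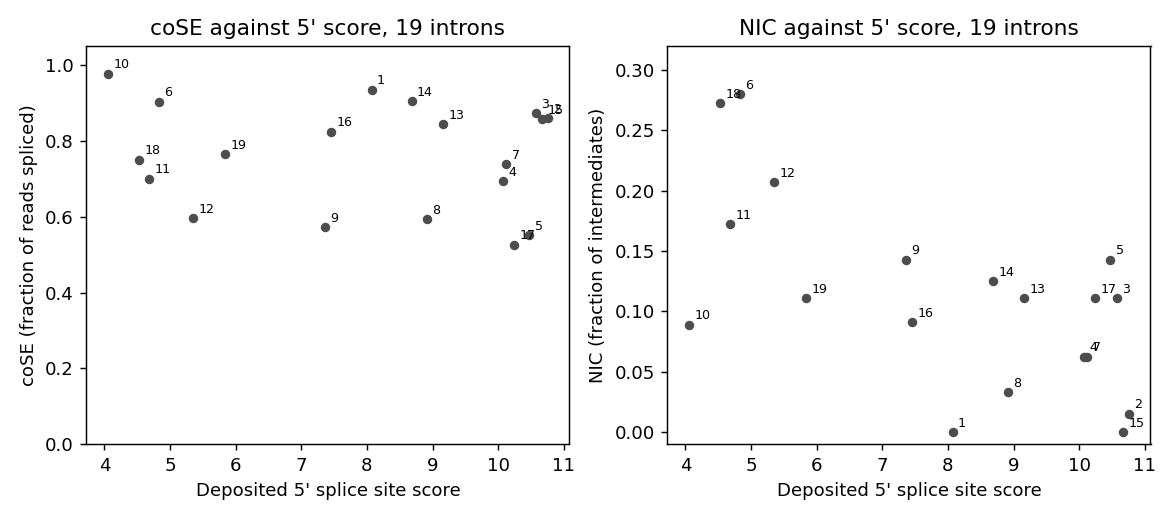
coSE (left) and NIC (right) of the 19 Slc4a1 introns against the deposited 5' splice site score; points are labelled with the intron number. The introns with a score below 6 include the highest coSE (intron 10, 0.977) and the highest NIC (intron 6, 0.280). They also include intron 12, with a coSE of 0.595.

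Slc4a1 was set beside the genes of the band 3 complexes and the membrane skeleton, a list of 27 with Slc4a1 itself. Of these, 24 had lines in both pools, and their share of all observations was higher in the induced pool for 19 and lower for 5. It was more than 2-fold higher for 15 of the 24, against 22.5% of the 6409 transcripts observed in both pools, and the median ratio was 2.85 against 0.994. Reads cover several introns and replicates are merged, so these are ratios of 2 pools with no error. Slc4a1, Epb42 and Dmtn, a cytoskeletal protein gene with 17 induced observations, had no uninduced line.

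The partners of band 3 differed in how many observations they already had before induction. Ank1, which encodes the ankyrin that anchors band 3 to spectrin, went from 339 to 2954 observations (12.99-fold in share). Sptb, which encodes a spectrin chain of the skeleton, went from 104 to 713 observations (10.2-fold). The Rh complex genes Rhd and Rhag went from 130 to 286 (3.28-fold) and from 222 to 262 (1.76-fold), and Kel, a blood group antigen gene, from 796 to 961 (1.80-fold). Of the carbonic anhydrase genes, whose products supply bicarbonate for exchange, Car2 went from 226 to 580 observations and Car1 from 727 to 1. The adducin gene Add2 went from 308 to 200, a share ratio of 0.968.

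Among the 13 genes of this list with at least 100 induced observations, Slc4a1 had the second lowest coSE over all reads. Kel was below it at 0.753, and Actb (0.808) and Add2 (0.810) were next. Ank1 had 0.954, Epb42 0.947, Sptb 0.914 and Car2 0.983, the highest. Between pools, 93 introns of 10 of the listed genes had at least 10 reads in each pool and could be tested for coSE. None passed: Fisher's exact test and the chi-square test both called 0, 9 had an unadjusted p under 0.05, and 1.61% of all 4403 introns tested passed. No Slc4a1 intron could enter that comparison.

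**Figure D5:**
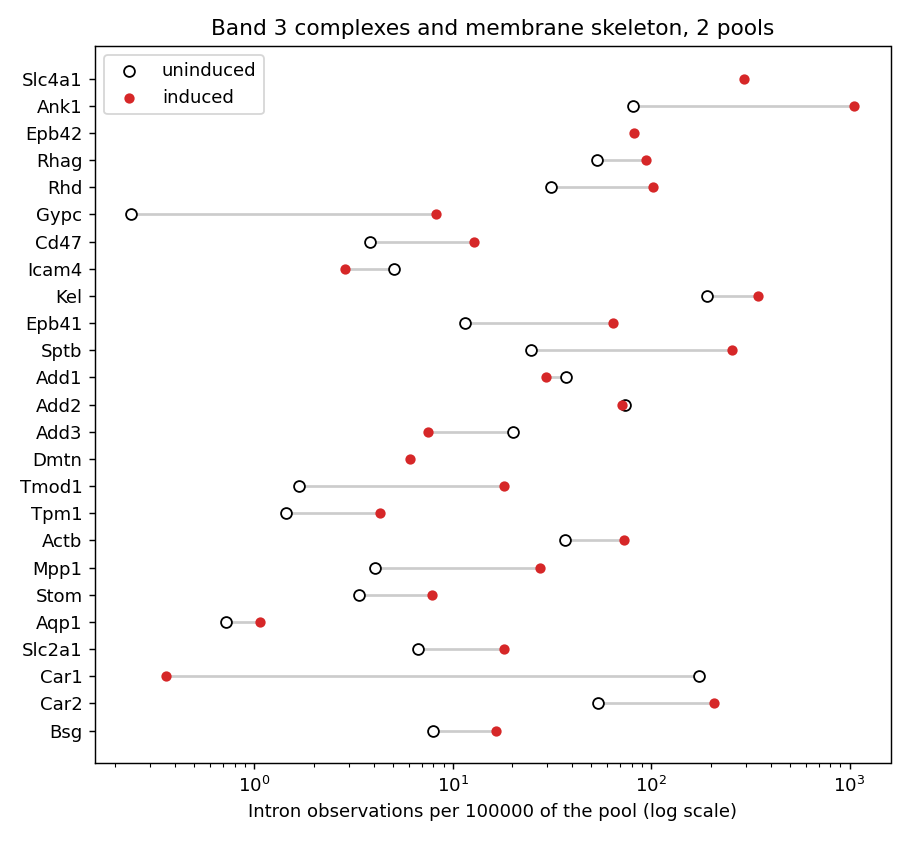
Intron observations per 100000 of each pool (log scale) for 25 genes of the band 3 complexes and membrane skeleton, uninduced (open) and induced (filled). Slc4a1, Epb42 and Dmtn have no open point because they had no uninduced line, and for Icam4, Add1, Add2, Add3 and Car1 the filled point lies to the left.

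Genes most like Slc4a1 were sought among the 149 genes with at least 10 well-covered introns, by distance over 3 scaled measures in these 2 pools: the change in share of observations, the induced coSE and its SD over introns. Csf2rb2, Alas2, Csf2rb and Tfrc were among the 5 nearest when 1 observation was added to both pools. The order depends on that addition, because Slc4a1 had no uninduced line. Its log2 change was 10.25 with 1 added and at least 4.42 at the floor of 3 reads per intron. The floor was a setting chosen after the data were seen, and both values take unlisted introns to have held no read. The distance of Csf2rb2 was 2.73 with 1 added and 1.78 at the floor, and that of Csf2rb was 4.90 and 0.981, so Csf2rb became the nearest. At the floor 4 of the 5 nearest were the same genes, Tfrc fell to rank 8, and Alad, a heme synthesis gene outside the naming rule, entered. Csf2rb2, a cytokine receptor subunit gene, had 15 uninduced and 959 induced observations, a coSE of 0.801 and an SD of 0.169. Csf2rb, its close relative, had 199 and 1384 observations, a coSE of 0.738 and an SD of 0.169. Reads may have been divided between these similar copies. Alas2, whose enzyme starts heme synthesis in red cell precursors, had 61 and 1536 observations and a coSE of 0.931. Tfrc, the transferrin receptor that brings iron into the cell, had 213 and 2001 observations and a coSE of 0.937.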

How the data were processed

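Of 20 samples, 8 long-read samples (4 uninduced, 4 induced) stand behind the tables used; 12 others, with an inserted human beta-globin gene or from PRO-seq, were not analysed here. Per the file headers, the authors deposited raw counts of spliced and unspliced reads per intron and condition, and in a second table counts of spliced reads and intermediates, NIC as a fraction, GC content as a percent and a score for each splice site. The submitters' processing notes name cutadapt, minimap2, SAMtools, bedtools, Bowtie and the builds mm10 and dm3; their roles, the scoring program, the filters and which runs were merged are not given in the sources used here. The condition names were matched to the uninduced and induced long-read groups by name.

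Coordinates are 1-based (2 added to the deposited start, 1 taken from the end). All 8397 transcripts were matched to symbols in GENCODE mouse release 21 (GRCm38). Introns were numbered in the direction of transcription. Fisher's exact tests (scipy 1.17.1, Python 3.11.15) used introns with at least 10 reads in genes with at least 5 such introns (for NIC, all listed introns), with Benjamini-Hochberg adjustment over the pool (statsmodels 0.14.6), and were checked on simulated data. Intervals are Wilson 95% and floors 3 counts; both cover counting error only. The members, gene lists and tests were chosen with earlier results of these data known. The rule for named items was every Slc4a1 intron, sites printed for introns called plus the highest and lowest coSE and highest NIC, the band 3 and skeleton list, and the 5 genes nearest over 3 measures, each divided by its SD (1 observation was added to both pools). Some genes that the rule names are not reported here by name. Alternatives tried were other read minimums, the chi-square test, neighbouring introns only, dropping first and last introns, other denominators and other totals.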

Additional observations from a re-analysis of the deposited data

How the results depend on the processing

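No paired analysis was possible because the tables merge the replicates of a condition, and no replicate could be left out. Of the 19 introns, 4 differed in coSE from the rest of the gene. At a minimum of 5 reads and by the chi-square test 4 did, and at a minimum of 20 reads 5, intron 8 being added (adjusted p 0.0267). Against neighbouring introns only, 1 did (intron 10), and without first and last introns 2 did (introns 5 and 10), a setting in which intron 1 has no value. The difference at intron 5 was -0.23 in the main test and -0.20 against neighbours. At intron 9 it was -0.20 in the main test and -0.19 in both settings. Intron 1 fell from 0.19 to 0.08 against its neighbour. Fewer reads or introns entered these comparisons, and the cause of the lost calls was not tested. No direction reversed under these alternatives. For NIC, 0 introns passed under each of the 3 alternatives. The gene's coSE was 0.761 as a mean over introns too. The lower bound on the share of observations was 21.7-fold without the globin genes and 19.6-fold with the median ratio over genes. Both hold only if unlisted introns held no read. The test between pools gave no value for Slc4a1 at any read minimum, since it had no uninduced line. Depth limits single introns: at 16 reads, the fewest, the interval of coSE ran from 0.505 to 0.898.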
